A study of Brassica napus with 12 samples.

Results

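R8Q10 and SW are inbred lines of Brassica napus (rapeseed), and their seeds, taken 24 days after pollination, were compared gene by gene in 3 libraries each. The comparison held every gene listed in the files of both lines, 43708 of the 50338 genes listed in any file. By the chromosome named in the gene ID, 1489 of them lay on A10, 2151 on C9, 2825 on A3 and 3214 on C3. The remaining 34029 were IDs of other chromosomes, IDs with no chromosome and genes added by the authors.

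The study sequenced 12 libraries of 4 lines, the others being A28 and YH25005, and concerned high and low linolenic acid in seed oil. Neither line is labelled as high or low. Both lines were grown in the same experimental field, received no treatment, and were bagged at flowering so that the seeds came from selfing. Each genotype was represented by 1 inbred line, so a difference between R8Q10 and SW is a difference between these lines and not between oil types. The source label names unripe seeds and the extraction text embryos. Seed, seed coat and leaf markers could not be checked because 0 of them could be matched to an ID. Whether replicates were separate plants or plots is not stated, so a p-value reflects the spread among these libraries alone, and that spread may be technical.

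Rapeseed is an allotetraploid that carries an A subgenome from Brassica rapa and a C subgenome from Brassica oleracea, so most genes have a closely similar homoeologous copy in the other subgenome. Long parts of A10 and C9, and of A3 and C3, are homoeologous. In rapeseed, homoeologous chromosomes can exchange segments, which leaves a line without the genes of one segment and with an extra copy of the matching segment of the other chromosome. Linolenic acid is a polyunsaturated fatty acid made in the developing seed by desaturation of linoleic acid. No ID could be tied to a desaturase gene, and copy number was not measured.

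Library totals ran from 32714156 to 38829587 counts, and 3 counts, the limit that a count of 0 in a given library allows, corresponded to 0.0773 to 0.0917 CPM, the count scaled to library size. For 0 counts in all 3 libraries of a line the limit is 3 counts over the line. These limits cover counting error only. Across genes, which are not independent replicates, log2(CPM + 1) correlated at 0.912 to 0.965 between replicates and at 0.696 to 0.761 between the lines. The first principal component, with 72.4% of the variance, parted the lines, and did so with 68.3% when A10, C9, A3 and C3 were left out. SW replicate 3 and R8Q10 replicate 2 stood at opposite ends of the second component (12.5%), and results without each library are given where they moved.

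Across all chromosomes 10575 of 43621 tested genes differed between the lines, a background of 24.2% (edgeR quasi-likelihood test, Benjamini-Hochberg adjusted p under 0.05). Of these, 4977 (11.4%) were higher in R8Q10 and 5598 (12.8%) were lower, and 8791 (20.2%) differed at least 2-fold. The libraries of the lines did not overlap in 42.7% of tested genes. A10 stood apart from this background in one direction. On A10, 786 of 1486 tested genes (52.9%) were lower in R8Q10 and 86 (5.79%) were higher, with a median log2 difference of -1.31. C9 leaned the other way, with 495 of 2148 genes (23.0%) higher in R8Q10 and 168 (7.82%) lower. A3 had 257 genes higher (9.10%) and 489 lower (17.3%), and C3 had 462 higher (14.4%) and 262 lower (8.18%). On all other IDs 3677 of 33961 genes (10.8%) were higher and 3893 (11.5%) lower, close to the background in both directions.

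The direction that predominated on A10, C9, A3 and C3 was the same in all 15 alternative settings. On the other IDs, and over all genes, the excess of lower calls was not stable. With library totals in place of TMM scaling, 4349 of the other genes were higher and 3401 lower, and over all genes 5856 were higher and 4967 lower. Without SW replicate 3 the other genes gave 4291 higher and 3838 lower, and all genes 5712 and 5505. No gene called in both the main and an alternative setting changed sign. Without R8Q10 replicate 1 the count over all genes was 6995, with 3146 higher, and without SW replicate 2 the higher calls were 3173. The same omissions left 47 and 46 higher calls on A10, 319 and 311 on C9, and 170 and 153 on A3. Without SW replicate 1 there were 48 higher on A10 and 165 on A3, and without R8Q10 replicate 3 there were 52 higher on A10. Lower calls without R8Q10 replicate 1 came to 102 on C9, 324 on A3, 158 on C3 and 2553 on the other IDs, and without SW replicate 2 to 108 on C9 and 167 on C3. Higher calls on the other IDs were 2278 without R8Q10 replicate 1, 2423 without SW replicate 1 and 2325 without SW replicate 2.

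**Figure D1:**
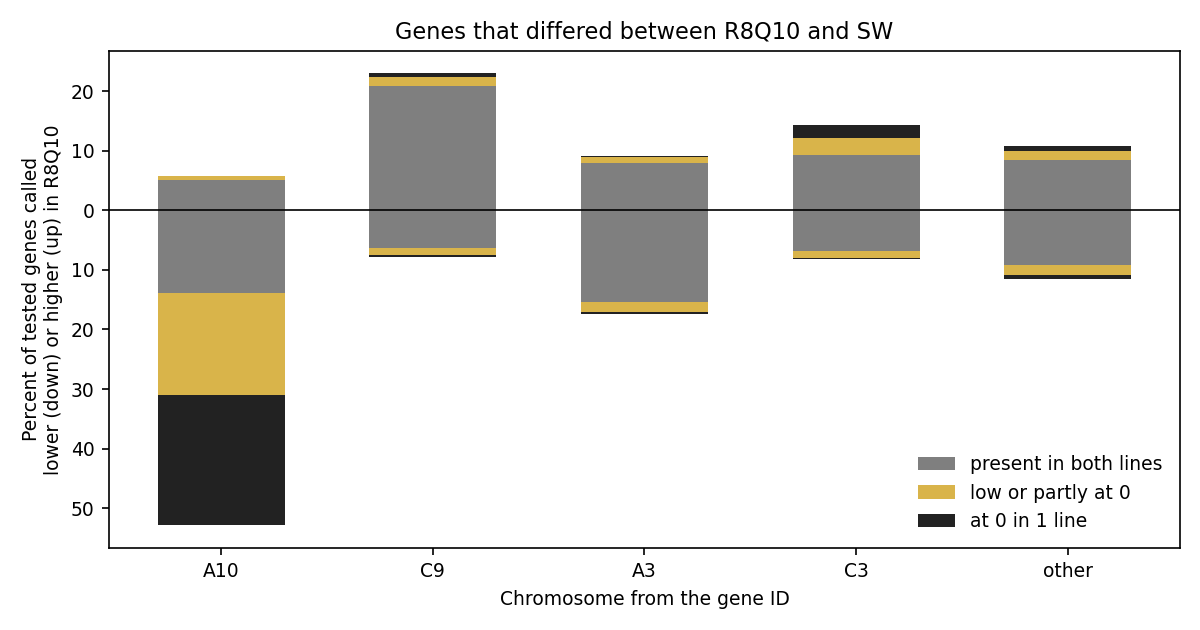
Percent of tested genes called higher in R8Q10 (above the line) or lower (below) for each chromosome class, split by whether the gene was present in both lines, low or partly at 0, or at 0 in 1 line. The downward A10 bar reaches 52.9% and the upward C9 bar 23.0%, against 11.5% and 10.8% for the other IDs.

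The genes were then parted by presence. A gene was called present in both lines with at least 1 count in each of the 6 libraries and a mean of at least 1 CPM in each line, which 39983 genes met. Another 558 genes had 0 counts in all 3 R8Q10 libraries (1.28%) and 378 in all 3 SW libraries (0.865%). A further 28 had 0 in both lines, and 2761 were low or partly at 0. The authors' lists hold a gene only where it passed 1 CPM in at least 3 of 6 libraries of a pair of lines, A28 with R8Q10 and SW with YH25005. A gene at 0 in R8Q10 was therefore listed because of A28, and one at 0 in SW because of YH25005. Genes missing from either list, 3499 and 3131, were not analysed here.

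Among genes present in both lines, 3907 were higher in R8Q10 and 4097 lower, 8004 of 39983 together. A10 kept its direction in this class, with 76 of 877 higher and 207 lower. C9 had 448 of 2027 higher and 137 lower, and A3 had 223 of 2673 higher and 433 lower. C3 came closer to balance here, with 296 of 2935 higher and 218 lower, since many of its differing genes were low or at 0 in SW. On the other IDs 2864 of 31471 were higher and 3102 lower, 19.0% together, of which 174 and 249 differed at least 8-fold.

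The A10 difference lay in a run of neighbouring genes. Along the IDs, the running median of the log2 difference over 51 tested genes stayed below -2 from BnaA10g12720D to BnaA10g25160D, a run of 641 genes. Its median log2 difference was -9.32 (quartiles -11.23 and -5.18), or -7.39 with genes at 0 in R8Q10 placed at their bound. Of the 641 genes 298 had 0 counts in R8Q10, 239 were low or partly at 0 and 104 were present in both lines. Since the run was drawn from this same contrast, its values are a description and carry no test. Inside it 607 genes were lower and 1 was higher, against 71 lower and 68 higher among the 591 A10 genes that precede it, whose median was -0.03.

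The depth of the loss varied inside the A10 run. Of 639 genes with at least 1 CPM in SW, 298 were at 0 in R8Q10, 137 kept up to 1% of the SW level, 104 kept 1 to 10%, 76 kept 10 to 50% and 24 kept more than 50%. The median gene kept 0.0666%, and the summed CPM 7.40%. The running median was lowest at BnaA10g18280D, at -11.33 as fitted. For A10 genes at 0 in R8Q10 the fitted median was -11.23, against -8.23 at their bound. The depth and place of this minimum therefore rest in part on SW levels and on how the fit treats 0. The genes of the run stood near each other in A28, SW and YH25005, with medians of 1.83, 1.74 and 1.18 log2 above the mean of the 4 lines, and at -4.81 in R8Q10. For these medians 0.05 CPM was added before log2, so with many genes at 0 their size depends on that value. R8Q10 was the low line of the 4 in this run. That it lay below SW followed from how the run was drawn. Its 298 genes at 0 in R8Q10 were listed because of A28, so the level of A28 was also fixed in part.

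Genes were picked for their size of difference among those present in both lines and called, with no overlap of libraries and at least 5 CPM in the higher line. BnaA10g18730D had the largest fall on A10 by this rule. Its level was 1.64, 0.381 and 1.52 CPM in the R8Q10 libraries and 486, 740 and 804 CPM in SW. No R8Q10 library came near an SW library, and the difference was 577-fold (log2 -9.17 ± 0.71 SE, edgeR adjusted p = 0.000214). BnaA10g21240D was the 1 gene called higher inside the run and had the largest rise on A10 by the same rule, which leaves out genes at 0 in a line. It gave 411, 255 and 565 CPM in R8Q10 and 20.9, 13.1 and 42.6 in SW, without overlap. It was 16.1-fold higher in R8Q10 (log2 4.01 ± 0.55 SE, adjusted p = 0.00216), and log2 4.59 without SW replicate 3. BnaA10g19670D was the most abundant A10 gene at 0 in R8Q10. It had 0 counts in the 3 R8Q10 libraries and 351, 701 and 452 CPM in SW, at least 17071-fold higher in SW. This bound sets the limit for the line, 3 counts over the 3 R8Q10 libraries together, against the SW counts, on library totals without TMM. The same limit was used for every gene at 0 below. None of the 3 IDs has a name in the reference table used here.

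After the run the A10 difference took another form. The 125 genes from BnaA10g25180D to BnaA10g27520D had a median of -0.91, and 63 of them were lower in R8Q10 and 3 higher. Here 122 were present in both lines and none was at 0. In these genes SW stood above the others, at 0.75 log2 over the mean of the 4 lines, with R8Q10 at -0.06, A28 at -0.15 and YH25005 at -0.58. The A10 genes that precede the low run stood at 0.06 in SW, 0.16 in R8Q10, 0.17 in A28 and -0.27 in YH25005. The 84 genes that follow BnaA10g27520D returned to a median of 0.07. The last 45 IDs, BnaA10g29610D to BnaA10g30640D, were low in R8Q10 again, with a median of -9.47, 23 genes at 0 and 36 lower calls. With genes at 0 placed at their bound this median was -7.3. In the Da-Ae assembly, another rapeseed genome, BnaA10g30580D lies between BnaA10g23470D and BnaA10g24570D, and BnaA10g29610D and BnaA10g29670D lie before BnaA10g14130D. ID order at the end of A10 therefore differs from the order in that assembly. Between BnaA10g14130D and BnaA10g24570D of that order, 14 of the 23 matched genes were at 0 in R8Q10, 5 were low or partly at 0 and 4 were present in both lines.

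**Figure D2:**
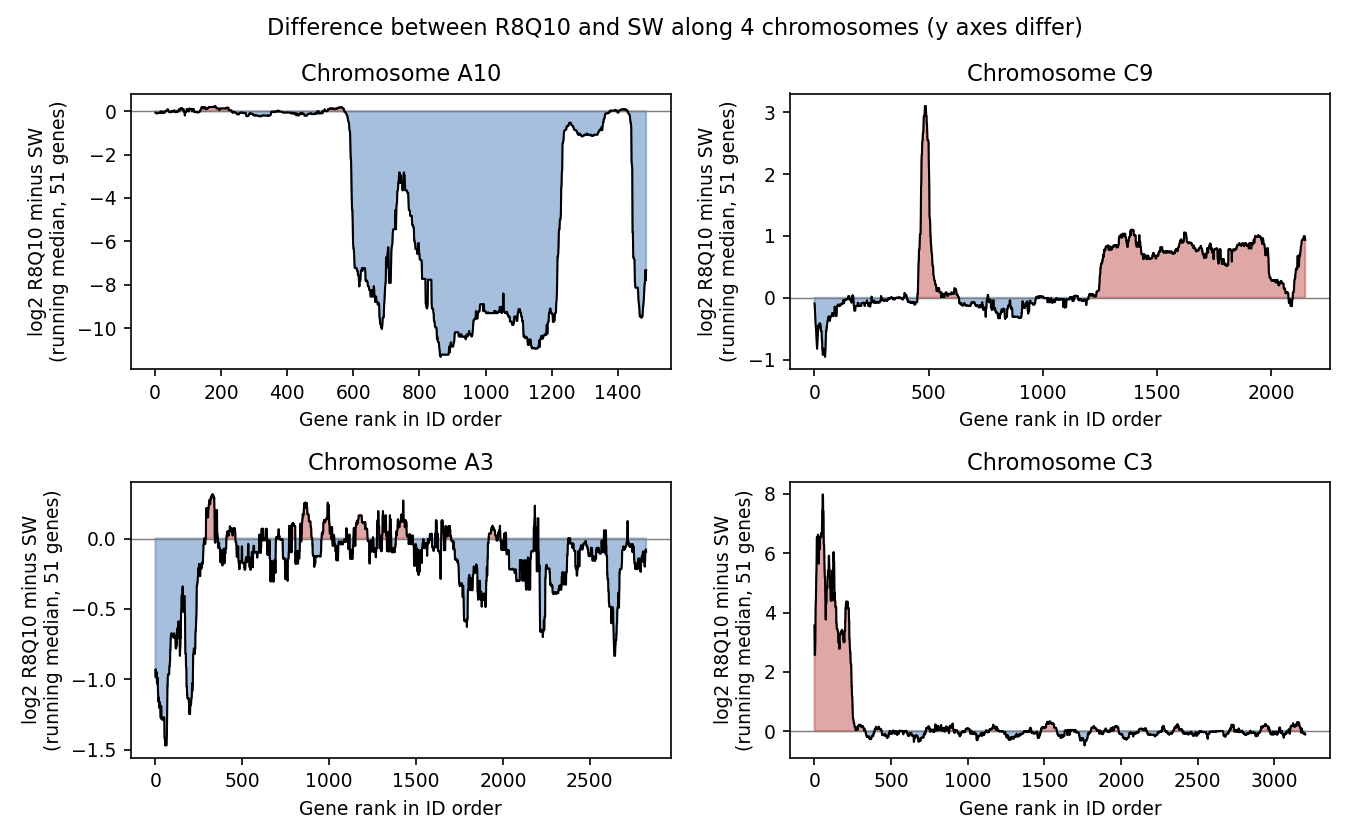
Running median over 51 tested genes of the log2 difference between R8Q10 and SW, against gene rank in ID order, for A10, C9, A3 and C3 (red above 0, higher in R8Q10; blue below 0). The A10 trough reaches -11.33 and returns to about 0 before a shorter one, C9 holds a long plateau with a median of 0.82, and the start of C3 peaks at 7.98. Values are as fitted, with genes at 0 not placed at their bound.

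On C9 the difference was a shallow and long rise. From BnaC09g35160D to BnaC09g50310D, 735 genes, the running median stayed above 0.5, and the median gene was 0.82 log2 higher in R8Q10 (quartiles 0.36 and 1.22). There 340 genes were higher in R8Q10 and 32 lower, while the other 1413 C9 genes had 155 higher, 136 lower and a median of -0.01. Of the 735 genes 710 were present in both lines. Among these 85.2% had a higher mean in R8Q10, 57.3% by 0.5 to 1.5 log2, and the median rise was 1.76-fold. Against the mean of the 4 lines, R8Q10 stood at 0.76, A28 at -0.01, SW at -0.18 and YH25005 at -0.62. Since the run was drawn from this same contrast, R8Q10 above SW followed from how it was drawn, and these values carry no test. Split by CPM into groups of 236 or 237 genes, the median rise was 0.65 in the lowest, 0.84 in the middle and 0.89 in the highest group, with 62, 132 and 135 genes called.

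The C9 run ended before the last C9 IDs. The 35 genes from BnaC09g53950D to BnaC09g54740D were higher in R8Q10 again, with a median of 0.94. A separate stretch of 34 genes, BnaC09g11230D to BnaC09g12090D, was low in SW, with a median log2 difference of 3.54, 7 genes at 0 in SW and 30 higher calls. BnaC09g11300D, in that stretch, had the largest rise in R8Q10 on C9 by the same rule. Its level was 86.0, 72.1 and 72.5 CPM in R8Q10 against 1.11, 0.829 and 1.92 in SW. The groups stood far apart, 59.5-fold (log2 5.90 ± 0.37 SE, adjusted p = 0.000132). BnaC09g00800D had the largest fall, with 75, 107 and 76 counts in R8Q10 and 1363, 1185 and 3585 in SW. It was 27.3-fold lower in R8Q10 (log2 -4.77 ± 0.51 SE, adjusted p = 0.000712), and log2 -4.06 without SW replicate 3, its highest library. It lay in a short stretch at the start of C9, 25 genes from BnaC09g00630D to BnaC09g01420D, whose median was -0.53. BnaC09g25980D, at 0 in SW, had 49.4, 42.6 and 96.4 CPM in R8Q10, at least 2112-fold higher.

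Summed over the A10 run, R8Q10 gave 1282, 989.1 and 1500 CPM and SW 16039, 17493 and 17408. The SW libraries were thus 13.5-fold higher, 16980 ± 816 against 1257 ± 256 CPM (mean ± SD, n = 3). The C9 run summed to 29624, 27954 and 31162 CPM in R8Q10 and 18994, 20354 and 19827 in SW, a log2 ratio of 0.58. The sum of both runs depends on where their edges were drawn and is given as a description. It was 30837 ± 1860 CPM in R8Q10 and 36705 ± 1480 in SW, lower in R8Q10 by a ratio of 0.840 with no overlap between the libraries. The log2 ratio of -0.25 became -0.61 with a running median over 31 genes, which shortened the C9 run to 500 genes. Over whole chromosomes A10 and C9 together came to 0.894 of the SW sum, against 0.953 for the other IDs and 0.935 for all genes in both lists, and A10 alone at 18516 CPM against 37005.

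C3 and A3 showed the reverse picture, with SW as the line that was low. The first 240 tested C3 genes, BnaC03g00010D to BnaC03g05640D, had a median log2 difference of 4.26 (quartiles 1.92 and 9.55). Among them 191 were higher in R8Q10 and 9 lower, and 62 were at 0 in SW. The other 2962 C3 genes had 271 higher, 253 lower and a median of -0.03. Relative to the mean of the 4 lines, with the same 0.05 CPM added, the 240 genes stood at -2.95 in SW, 1.13 in R8Q10, 1.21 in A28 and 0.69 in YH25005. That SW lay below R8Q10 followed from how the run was drawn. The 62 genes at 0 in SW were listed because of YH25005, so its level was fixed in part. SW kept more here than R8Q10 kept in the A10 run. Of 235 genes with at least 1 CPM in R8Q10, 60 were at 0 in SW, 24 kept up to 1%, 56 kept 1 to 10%, 58 kept 10 to 50% and 37 kept more than 50%, so that 21.6% of the summed CPM was left.

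The first A3 genes were higher in SW. From BnaA03g00020D to BnaA03g02830D, 150 genes, the median log2 difference was -0.94, with 79 lower in R8Q10 and 2 higher. A second run of 68 genes, BnaA03g03150D to BnaA03g04330D, followed with a median of -1.10. Over both runs 204 of 218 genes were present in both lines and the median rise in SW was 1.89-fold. These runs too were drawn from this contrast, so their values are a description. SW stood at 0.70 log2 over the mean of the 4 lines, against -0.20 in R8Q10 and -0.07 in A28. Beyond the first run A3 still leaned to SW, with 410 of 2674 genes lower in R8Q10 (15.3%) and 255 higher (9.54%). This included the second run and shorter ones of 31 and 26 genes.

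The C3 run summed to 5070, 4881 and 5071 CPM in R8Q10 and 1060, 1008 and 1178 in SW, 4.63-fold higher in R8Q10. The first A3 run summed to 2293, 2450 and 2215 CPM in R8Q10 and 4910, 4897 and 4971 in SW, 2.12-fold higher in SW. Added together they gave 7327 ± 39.0 CPM in R8Q10 and 6008 ± 126 in SW (log2 0.29, a description for the same reason). This direction depended on where the edges lay. With a wider running median, which joins the A3 runs into 244 genes and shortens the C3 run to 218, the log2 ratio was -0.35, and with both A3 runs added it was -0.28. The sum over these runs thus has no settled direction. Over whole chromosomes A3 and C3 together came to 0.867 of the SW sum, with no overlap between the libraries. The other IDs came to 0.953 and all genes in both lists to 0.935.

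**Figure D3:**
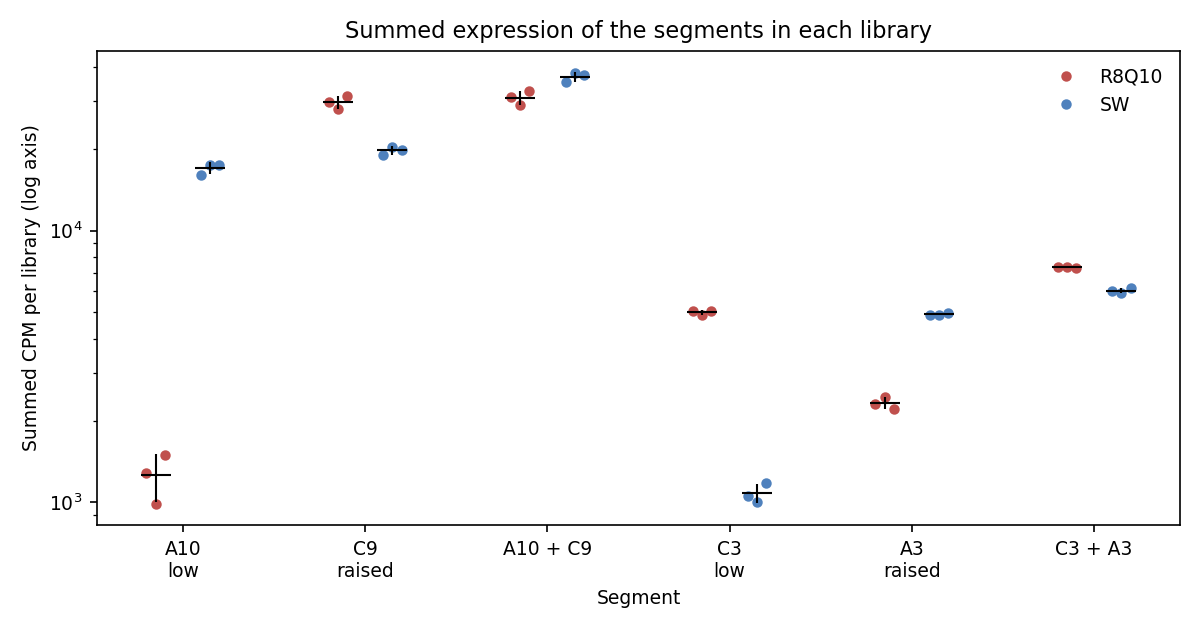
Summed CPM per library (log axis) over the low and raised runs of A10 and C9, of C3 and A3, and over each pair; points are the 3 libraries of a line and bars the mean with SD. The lines part by 13.5-fold on A10 and 4.63-fold on C3, and by a ratio of 0.840 over A10 and C9 together.

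By the same rule BnaC03g04670D had the largest rise on C3, with 85.1, 79.8 and 68.8 CPM in R8Q10 and 1.26, 0.860 and 1.16 in SW. The libraries were tight within each line, and the difference was 70.8-fold (log2 6.15 ± 0.26 SE, adjusted p = 0.000114). BnaC03g00960D, with 0 counts in SW, had 87.8, 67.9 and 60.8 CPM in R8Q10, at least 2505-fold higher. Both lay in the run at the start of C3. BnaC03g14140D, outside it, fell most, at 3.21, 1.33 and 0.911 CPM in R8Q10 against 29.8, 36.6 and 37.6 in SW (19.0-fold, log2 -4.25 ± 0.48 SE, adjusted p = 0.000911). Without R8Q10 replicate 1 its log2 difference was -4.94.

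On A3 the genes chosen by the same rule lay outside the runs at its start. BnaA03g31030D gave 141, 86.3 and 140 CPM in R8Q10 and 8.71, 3.63 and 2.14 in SW, 25.3-fold higher in R8Q10 (log2 4.66 ± 0.57 SE, adjusted p = 0.00134). BnaA03g11140D gave 1.92, 1.60 and 3.34 CPM in R8Q10 and 99.5, 432 and 142 in SW, 98.4-fold lower (log2 -6.62 ± 0.73 SE, adjusted p = 0.000848). SW replicates 1 and 2 were the extreme libraries for these genes. Without SW replicate 1 the first was at log2 5.42, and without SW replicate 2 the second was at -5.70. BnaA03g01470D, in the first A3 run, was at 0 in R8Q10 and at 18.5, 18.4 and 18.5 CPM in SW, at least 635-fold higher in SW.

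Genes at 0 in 1 line were concentrated differently in the lines. A10 held 327 of the 558 genes at 0 in R8Q10, 22.0% of A10 genes against 1.28% over all. C9, A3 and C3 together held 20 and the other IDs 211 (0.620%). Of the 378 genes at 0 in SW, 71 lay on C3 (2.21% of C3 genes), 19 on A10, C9 and A3 together and 288 on the other IDs (0.846%). C3 was not alone in this, since C1 had 40 genes at 0 in SW (2.35%) and unplaced C IDs 79 (3.14%). Genes added by the authors, counted among the other IDs, had 49 at 0 in SW (2.34%) and 71 at 0 in R8Q10 (3.39%). Unplaced C IDs held 16 of the genes at 0 in R8Q10. Low runs, where they could be drawn, held 321 genes at 0 in R8Q10, all on A10. In SW they held 119, of which 62 were on C3, 7 on C9, 20 on C1 and 30 on unplaced C IDs. On the ID order 274 of the 327 A10 genes lay next to another gene at 0 in R8Q10. Outside the 4 chromosomes this held for 35 of 114 placed genes. Among genes at 0 in SW, 33 of the 71 on C3 lay next to another such gene, a smaller share than on A10. Beyond the 4 chromosomes 47 of 153 placed genes at 0 in SW did, a share similar to that for R8Q10.

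Levels of these genes in the other line varied, and the filter on that line's list fixes them in part. For scale, 8571 genes of other IDs present in both lines had a mean of 1 to 5 CPM and 13862 of 5 to 20. Another 7993 had 20 to 100 CPM and 1045 had 100 or more. The A10 genes at 0 in R8Q10 had a median of 8.66 CPM in SW (quartiles 4.47 and 20.3), with 142 at 10 CPM or more and 8 at 100 or more. Genes on other IDs at 0 in R8Q10 had a median of 5.15 CPM, with 61 at 10 or more. C3 genes at 0 in SW had a median of 9.04 CPM in R8Q10, with 33 at 10 or more, and the unplaced C genes one of 11.8 CPM. YH25005 shares its list with SW, so the filter on that list fixes its levels in part, as it does those of A28 for genes at 0 in SW. In YH25005 306 of the 327 A10 genes (93.6%) reached 1 CPM and 3 were also at 0. Among the 211 on other IDs 147 did (69.7%), and 42 were at 0 there too. A28 reached 1 CPM for 69 of the 71 C3 genes at 0 in SW (97.2%), and for 217 of the 288 on other IDs (75.3%).

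**Figure D4:**
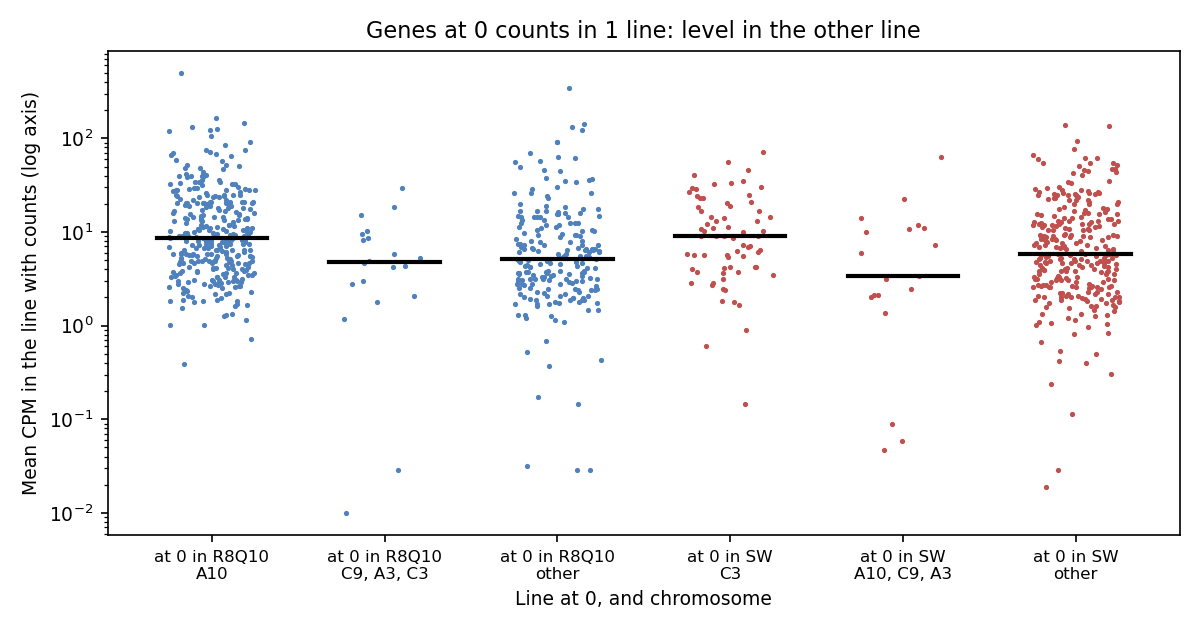
Mean CPM (log axis) in the line with counts for each gene at 0 in all 3 libraries of the other line, by line at 0 and chromosome class; each point is a gene and bars are medians. Medians are 8.66 CPM for A10 genes at 0 in R8Q10 and 9.04 for C3 genes at 0 in SW, and 5.15 and 5.80 on the other IDs. They are lowest for C9, A3 and C3 genes at 0 in R8Q10 (4.76) and A10, C9 and A3 genes at 0 in SW (3.37).

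Shorter runs, drawn from this contrast in the same way and given as a description, appeared elsewhere. On C1, 32 genes from BnaC01g32860D to BnaC01g33850D were low in SW with a median of 9.12 (7.13 with genes at 0 at their bound), 15 of them at 0. Another 25 from BnaC01g35830D to BnaC01g37160D had a median of 2.42. A1 held runs higher in SW, the longest of 139 genes from BnaA01g28070D to BnaA01g31170D with a median of -0.85 (63 lower, 7 higher), and a run of 49 genes higher in R8Q10 at 0.67. On C6, 39 genes had a median of 3.03, with A28 and SW both below the mean of the 4 lines, at -0.75 and -1.51. A7 held 3 runs of 26 to 34 genes between -0.85 and -0.93, A9 one of 37 genes at -0.98 and A4 one of 45 genes at -0.83. Among unplaced C IDs, 74 genes from BnaCnng02040D to BnaCnng03650D had a median of 7.47 (6.67 with genes at 0 at their bound), with 30 at 0 in SW. In the Da-Ae assembly 8 of these could be matched, all on C9, and 6 of the 8 were at 0 in SW. On that C9, 10 matched genes follow BnaC09g50560D, of which 6 were at 0 in SW, 1 was low or partly at 0 and 3 were present in both lines. These 10 include the same 8 genes, so the 6 at 0 are those already counted, from a stretch drawn as low in SW.

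On the 15 other numbered chromosomes the called share ran from 16.2% on C8 to 26.7% on A1. The share higher in R8Q10 ran from 7.04% on C5 to 14.2% on C1, the share lower from 7.87% on C4 to 14.6% on A7, and the median log2 difference from -0.08 on A7 to 0.17 on C4. C4 leaned to R8Q10 with 12.8% higher, near the 14.4% of C3. More genes were lower than higher in R8Q10 on 11 of them, 6 of the 8 A and 5 of the 7 C chromosomes, an excess that turns over all other IDs with library totals or without SW replicate 3. The A subgenome held 46.09, 46.99 and 46.69% of counts with a subgenome in R8Q10 and 49.67, 49.90 and 49.86% in SW. Without A10, C9, A3 and C3 the shares came to 49.42% ± 0.65 and 50.81% ± 0.16 (SD, n = 3), a difference of -1.38 points with no overlap (exact two-sided permutation p = 0.1, the smallest possible).

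Among genes of other IDs present in both lines, the share that differed grew with level, from 11.7% of 8571 genes at 1 to 5 CPM to 20.8% at 5 to 20, 22.0% at 20 to 100 and 31.4% of 1045 genes at 100 CPM or more. At the highest level 123 were higher in R8Q10 and 205 lower. The median absolute log2 difference was 0.49, 0.43, 0.43 and 0.7 at these levels, from lowest to highest. It was thus larger only at 100 CPM or more. More counts also give a test more power, and the part of each in the called share was not tested. The 50 most abundant genes of SW took 6.50, 8.84 and 8.36% of SW counts and 3.62, 3.24 and 3.39% of R8Q10 counts, and 40 of them were lower in R8Q10. The 50 most abundant of R8Q10 took 8.77, 5.85 and 7.63% of its counts and 3.59 to 4.26% of SW counts, with 15 higher and 3 lower. Each set was picked in the line where it is high, so its direction is a description. By the mean over all 6 libraries, the 50 most abundant had 4 higher and 22 lower.

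Outside the 4 chromosomes, the largest rises by the same rule were in BnaC01g43250D, BnaA05g20180D and BnaAnng22470D. BnaC01g43250D gave 514, 1701 and 179 CPM in R8Q10 and 9.24, 5.70 and 0.189 in SW, 158-fold (log2 7.30 ± 1.52 SE, adjusted p = 0.0128). It varied widely within both lines, and its log2 difference ran from 6.10 without R8Q10 replicate 2 to 8.09 without SW replicate 1. The call was lost without SW replicate 2 (adjusted p = 0.0524). BnaA05g20180D had 3597, 5517 and 9915 counts against 53, 33 and 33, 146-fold (adjusted p = 0.000218), and log2 6.58 in place of 7.19 without R8Q10 replicate 3. BnaAnng22470D, an unplaced A gene, gave 206, 153 and 148 CPM against 1.61, 0.606 and 1.61, 132-fold (adjusted p = 0.000143). The R8Q10 and SW libraries did not overlap for any of the 3, which the rule required.

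The largest falls by that rule were in BnaA05g12530D, BnaA05g32500D and BnaA06g35390D. BnaA05g12530D was steady in SW at 651, 669 and 698 CPM and uneven in R8Q10 at 8.54, 0.167 and 0.0304, 231-fold lower (log2 -7.85 ± 1.81 SE, adjusted p = 0.0195). R8Q10 replicate 1 set its size, and without it the log2 difference was -12.61. BnaA05g32500D gave 3.64, 2.60 and 5.40 CPM in R8Q10 and 252, 256 and 300 in SW, 69.5-fold lower (adjusted p = 0.000132). BnaA06g35390D gave 1.52, 3.55 and 5.65 CPM against 244, 217 and 136, 55.7-fold lower (adjusted p = 0.000504). In each of these genes every R8Q10 library lay below every SW library, which the rule required.

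The most abundant genes at 0 in R8Q10 on other IDs were BnaA02g30780D, with 299, 404 and 321 CPM in SW, at least 11688-fold higher in SW, and BnaA01g06440D, with 150, 151 and 123 CPM, at least 4862-fold. Both were expressed in YH25005, BnaA02g30780D at 304 ± 74.4 CPM and BnaA01g06440D at 193 ± 2.13 (SD, n = 3, library totals). At 0 in SW, BnaA09g21960D gave 90.4, 67.3 and 254 CPM in R8Q10, at least 4529-fold higher. Brassica_napus_newGene_17213, which the authors added to the annotation, gave 90.7, 68.9 and 249 CPM, at least 4500-fold. These closely matched levels in R8Q10 did not recur in YH25005, at 12.5 ± 5.74 and 62.0 ± 52.6 CPM, and whether the genes share reads was not tested. Only 2 of the 43708 genes have a name in the reference table. KCP1 (BnaA02g32290D) gave 14.3 ± 3.40 CPM in R8Q10 and 8.88 ± 1.95 in SW (SD, n = 3; log2 0.69 ± 0.25 SE, adjusted p = 0.0928, and 0.0453 with all 12 libraries in the fit). TR1 (BnaCnng15100D) gave 34.0, 32.1 and 35.6 CPM against 30.5, 28.3 and 49.0, with overlapping libraries (log2 -0.08 ± 0.25 SE, adjusted p = 0.838).

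**Figure D5:**
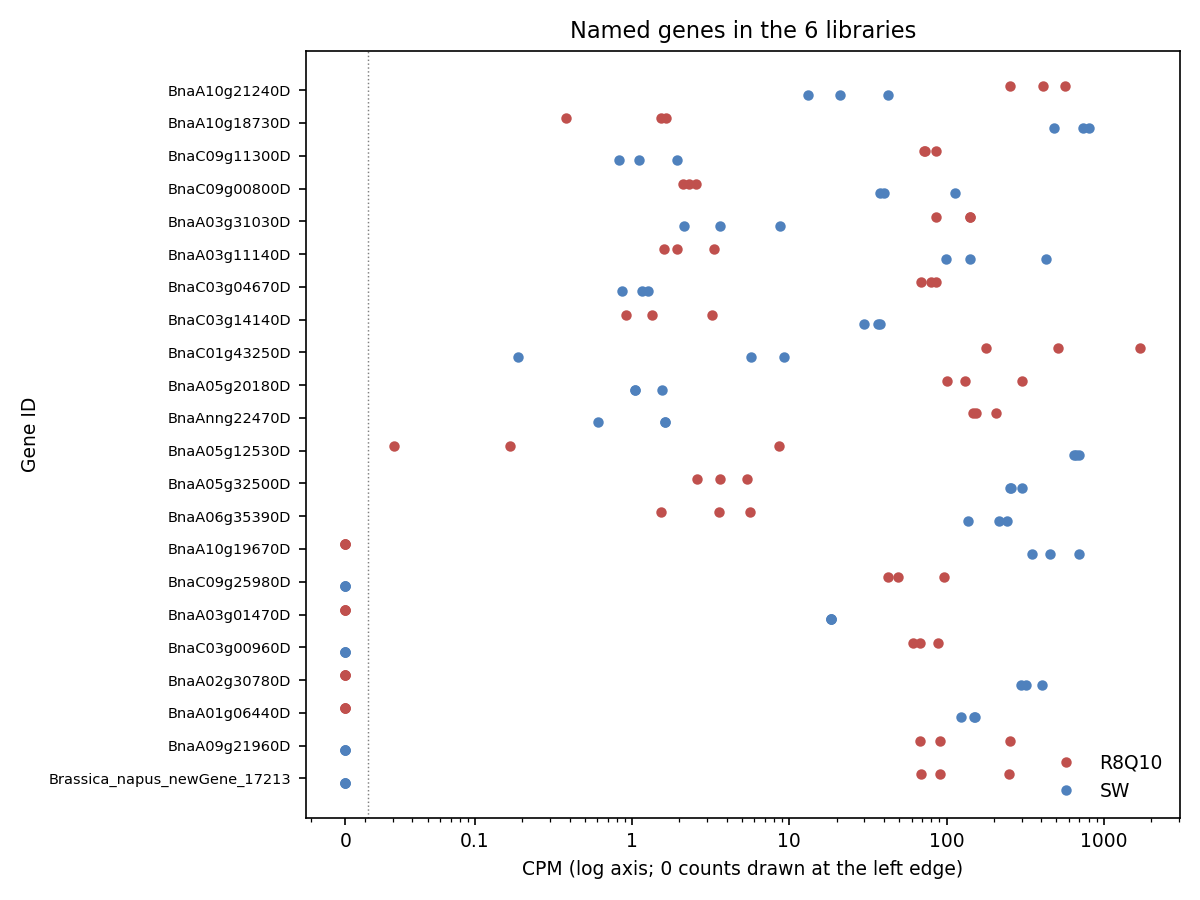
CPM of the 22 genes named by size of difference in each of the 3 R8Q10 (red) and 3 SW (blue) libraries, on a log axis with 0 counts drawn at the left edge. The lines do not overlap in any gene, which the rule that chose them required, and the widest spread within a line is in BnaA05g12530D and BnaC01g43250D.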

How the data were processed

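Poly-A RNA from seeds of R8Q10 and SW was sequenced as read pairs on an Illumina instrument, per the labels' protocols, with a kit whose description does not mention strand. Antisense or overlapping genes may thus share reads. HISAT2, bcl2fastq and DESeq2 are named, without a version, in the submitters' processing notes. Not given in the sources used here are the genome build, the counting program and the treatment of reads that match both homoeologous copies, so levels of each copy are uncertain. Each file deposited by the authors holds a read count and an FPKM per gene, per the file headers. Tests used the counts as deposited. The deposited FPKM values entered no test.

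All listed genes entered the library size. The 43708 genes in both lists were fitted by quasi-likelihood in R 4.3.3 with edgeR 4.0.16 (TMM, filterByExpr, which removed 87 genes), with Benjamini-Hochberg adjustment over the 43621 tested. CPM are TMM-scaled, except levels of A28 and YH25005, bounds for genes at 0 and levels set against the mean of the 4 lines. These last used library totals for all 4 lines, with 0.05 CPM added before log2. The order of R8Q10 and SW in a run was fixed by how it was drawn. Bounds hold for CPM before TMM scaling. SE is the log2 difference divided by the root of F. Biological coefficients of variation were 0.34 in R8Q10 and 0.352 in SW. Replicates differed by more than sampling noise (chi-square per degree of freedom 40.9 to 129), so each was counted as 1 sample. The fit was tested on simulated data.

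Chromosomes were read from IDs, which do not show unanchored scaffolds, so such genes stayed with their chromosome. A low run had a running median beyond 2 and a raised run beyond 0.5 in log2, over 51 genes, with at least 25 genes. Named genes had adjusted p under 0.05, no overlap and at least 5 CPM in the higher line. Of these, the gene with the largest log2 difference per direction was taken on each of the 4 chromosomes and 3 per direction elsewhere, plus the most abundant genes at 0 (1 on each of the 4 chromosomes and 2 per direction elsewhere). Members, chromosomes and lists were chosen with earlier results of these data known. RefSeq's table of the Da-Ae assembly matched 1934 IDs, 1615 of 1720 placed ones (93.9%) on the same chromosome. No gene list could be matched, so none was tested. Alternatives were DESeq2 1.42.0, other scalings and filters, all 12 libraries, a replicate block, other window sizes and leaving out each library.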

Additional observations from a re-analysis of the deposited data

How the results depend on the processing

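Calls over all genes numbered 10545 to 10823 under other scalings and filters, 10321 with all 12 libraries and 13599 with DESeq2. Same-numbered libraries deviated together with correlations of -0.121, 0.396 and 0.187, and R8Q10 replicate 1 correlated best with SW replicate 3, so the numbers were not taken as pairs; a replicate block gave 10679 calls. With library totals the median of all genes moved from -0.02 to 0.08 in log2, and medians were -1.21 on A10, 0.31 on C9, -0.03 on A3, 0.11 on C3 and 0.09 elsewhere; DESeq2 size factors left C3 at 0.02. The C3 and A3 sum turned to -0.35 (the widest window) and -0.28 (both A3 runs, chosen after seeing the data); the widest window moved the edges of both runs. TR1 turned to 0.01 with library totals and ran from -0.20 without SW replicate 2 to 0.21 without SW replicate 3. Leaving out each library in turn gave 6995 to 11217 calls, 3146 to 5712 higher and 3849 to 5505 lower. Higher calls ran from 46 to 98 on A10, 311 to 508 on C9, 153 to 298 on A3 and 2278 to 4291 elsewhere. Lower calls ran from 102 to 156 on C9, 324 to 477 on A3, 158 to 254 on C3 and 2553 to 3838 elsewhere. Medians ran from -1.37 to -1.28 on A10, 0.21 to 0.26 on C9, -0.18 to -0.10 on A3, 0.02 to 0.06 on C3 and -0.03 to 0.02 elsewhere; the cause of these shifts was not tested. A count of 0 allows up to 3 counts in that library, and 0 in all 3 libraries up to 3 counts over the line, while 3 libraries per line keep every exact permutation p at 0.1 or above.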
